A study of Arabidopsis thaliana with 12 samples.

Results

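Heat shock proteins (HSPs) and heat shock factors (HSFs) were followed in rosettes of Arabidopsis thaliana wild type (WT, Col-0) and the bou-2 mutant by RNA sequencing. Members were all genes whose short description in the deposited table contains "heat shock" or "HSP20" in upper or lower case, which gave 129 of 33326 genes, and the transcript with the highest mean WT level stood for each gene. By their descriptions they were 42 small HSPs, 16 HSP70 genes, 6 genes of HSP90 and HSP101, 17 HSFs, 43 DnaJ (HSP40) genes and 5 others, namely HSBP, HSP91, HSP60, HSP60-2 and HSP60-3A. The label HSP91 hides a high-molecular-weight relative of HSP70 and not an HSP90, as its annotation states, and DnaJ genes entered through descriptions that carry the words "heat shock". Of the 42 small HSPs 36 entered as HSP20-like, a superfamily wording that also takes in other proteins such as the NudC-domain BOB1. The plants of both genotypes were raised for 35 days at 3000 ppm CO2 in 12 h of light and 12 h of darkness, at 22°C in the light and 18°C in the dark, and were moved to ambient CO2 24 h before harvest. There were 3 WT day, 3 bou-2 day, 3 WT night and 3 bou-2 night libraries. No group was heated. The mutant was represented by 1 insertion line, which carries a T-DNA in an exon of BOU (At5g46800), a mitochondrial carrier gene needed for full glycine decarboxylase activity in photorespiration, so an effect of the line and of the gene cannot be told apart. For the day harvest the labels give 2 h of light and the methods of the study about 10 min of it, and the night harvest preceded the light by 2 h in the labels and by 3 h in the methods. The labels name mature leaves and the methods whole rosettes. Day is taken from the sample titles, although another label of these samples gives the end of the day.

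HSPs are molecular chaperones. Small HSPs hold unfolding proteins in a soluble state, HSP70 folds them with the help of DnaJ partners that deliver substrates and stimulate its ATPase, HSP90 matures a narrower set of clients, HSP101 pulls proteins out of aggregates, and HSP60 encloses them in a chaperonin ring. Each of the cytosol, mitochondrion, chloroplast and endoplasmic reticulum has its own set. In plants HSFs bind heat shock elements, alternating GAA and TTC blocks, in front of these genes. The HSFA1 proteins are the first activators in heat, HSFA2 is itself heat-induced and extends the response, and class B factors largely act as repressors. Many family members are also expressed without heat in unstressed leaves.

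The total of estimated counts ranged from 15911356 to 33046562 per library and was lowest in bou-2 day (15911356 to 20952513). Levels are in TPM, the share of a transcript among all transcripts of a library after scaling by transcript length, and fold changes come from edgeR's quasi-likelihood test on the estimated counts, with Benjamini-Hochberg adjustment over 26153 transcripts and a threshold of 0.05 on the adjusted p. A gene that passed is called higher or lower, and an error given with ± after a log2 fold change is its SE with n = 3 libraries per group. BOU itself was at 139.1 to 230.4 TPM in WT day and at 80.18 to 80.66 in bou-2 day, and at 152.8 to 175.5 in WT night and 65.25 to 67 in bou-2 night. The 3 leaf markers RBCS1A, RCA and LHCB1.2 summed to 27620 to 35060 TPM in WT day and 30420 to 32220 in WT night against 18300 to 20690 in bou-2 day and 19720 to 20970 in bou-2 night, so their summed level moved with the genotype, and the part of this in the results was not tested. Most of the sum was RBCS1A, with means of 23370 TPM in WT day and 14480 in bou-2 day. RCA had 4438 and 3985, and LHCB1.2 had 2697 and 976. The study reports lower Rubisco subunit transcripts in bou-2, so the sum is no neutral measure of leaf tissue. Markers of root, flower and seed summed to at most 0.6144, 1.969 and 1.58 TPM in any library. Small HSPs are also made without heat in pollen and maturing seed. SAG12, a marker of leaf senescence, reached 16.53 TPM in WT night.

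Of the 129 genes, 109 had enough counts to be tested and 20 did not. The transcripts of all 129 together made up 4410 to 5536 TPM in WT day, 4810 to 5661 in bou-2 day, 4212 to 4430 in WT night and 5781 to 6030 in bou-2 night. At night the bou-2 libraries were therefore all above the WT libraries, while the day groups overlapped. This sum is weighted by a few abundant genes, HSC70-1 foremost, which was not called at night, so it does not show a rise of each member. The median of all genes in bou-2 against WT at night was also higher on TPM, at log2 0.106 with limma on log2(TPM + 1) against 0.022 with edgeR. In bulk RNA such as this, a change in the share of a cell type and a change of RNA per cell cannot be told apart.

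More members were higher than lower in bou-2 at each time. In the day libraries 24 of the 109 tested members were higher in the mutant and 6 were lower, where 14.8% of all 20458 genes tested were higher and 12.8% lower. At night 29 members were higher, beside 14.8% of all genes, and 5 were lower, beside 12.2%. The member shares were thus 22% and 5.5% at day and 26.6% and 4.59% at night. The median log2 fold change over the members was 0.02 at day and 0.21 at night, beside -0.04 and 0.02 over all genes tested. The 2 comparisons share no library, and 18 genes were higher in both, which is 75% of the 24 and 62.1% of the 29. The same overlap over all genes tested was not counted, so these shares cannot be read as a trait of the members. HSP18.2 was lower in both, and HSFB2A was lower at day and higher at night. Leaving out 1 library at a time gave 17 to 24 genes higher at day and 23 to 32 at night. The 5 genes lower at night were a less settled set, since 1 remained without bou-2 night replicate 2 or 3, and 3 remained without bou-2 night replicate 1 or WT night replicate 1 or 2.

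**Figure D1:**
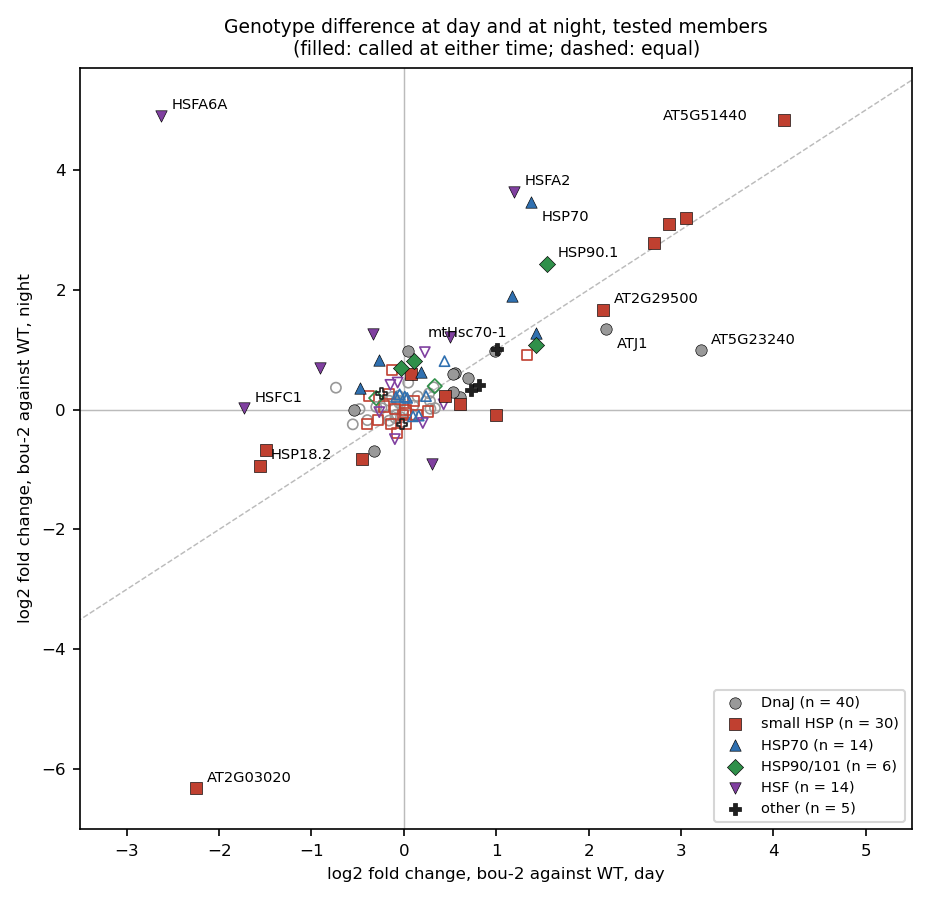
Log2 fold change of bou-2 against WT at day (x axis) and at night (y axis) for the 109 tested members, 1 point per gene, with the family shown by colour and shape and filled points for genes called at either time. Most points lie near 0 on both axes, AT5G51440 is at 4.11 and 4.84, HSFA6A is at -2.63 and 4.90, and the night value of AT2G03020 is a fitted value against libraries that all hold 0 counts.

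The short description or the location note of the annotation named the mitochondrion for 10 members, a grouping made after the values were seen and therefore given without a test. The notes of 6 members give only a number of components, so the grouping may miss some. Of the 10 members 8 were tested, and 7 were higher in bou-2 at day (87.5%, beside 14.8% of all genes tested) and 8 at night (beside 14.8%). HSP81-2 was the 1 not called at day. Its note and those of HSP70 and HSP60 list the cytosol first, and HSP81-2 and HSP70 are described with the cytosolic genes. The log2 fold changes of the 8 ran from 0.11 to 2.19 at day, with a median of 1.19, and from 0.33 to 3.46 at night, with a median of 1.05. Between the times HSP70 and HSP81-2 were higher at day in WT and none was called in bou-2 by edgeR, where 4 were at an unadjusted p under 0.05 and DESeq2's Wald test called 3. AT5G51440 has no location note and is described here for its closest relative, so it is not in these counts.

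AT5G51440 (chr5:20891163-20892416, TAIR10.1) is a small HSP whose closest relative by annotation is the mitochondrial HSP23.6-MITO. It was at 1.42, 3.22 and 1.01 TPM in WT day, 41.2, 23.51 and 40.5 in bou-2 day, 0.427, 0.429 and 1.41 in WT night and 29.03, 30.5 and 13.9 in bou-2 night. The lowest bou-2 library was thus well above the highest WT library at each time. The log2 fold change was 4.11 ± 0.50 at day (adjusted p = 0.000352), or 17.3-fold, and 4.84 ± 0.55 at night (adjusted p = 0.000295), or 28.6-fold. Without WT day replicate 2 the day difference was 26.7-fold, and without WT night replicate 3 the night difference was 51.4-fold. HSP23.6-MITO was too low for the test, at 0.0515, 0.109 and 0.0443 TPM in WT day and 0.648, 0.331 and 0.294 in bou-2 day, and at 0.0722, 0 and 0.11 in WT night and 0.618, 0.462 and 0.303 in bou-2 night. Its bou-2 libraries also did not overlap those of WT. Another small HSP placed in the mitochondrion, AT1G52560, did not pass the filter on low counts either and was at 0 in 7 of 12 libraries.

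ATJ1, the mitochondrial DnaJ partner of HSP70, was at 1.13, 1.497 and 1.66 TPM in WT day, 6.95, 5.86 and 8.43 in bou-2 day, 2.28, 1.22 and 2.59 in WT night and 5.10, 5.31 and 6.29 in bou-2 night. Its log2 fold change was 2.19 ± 0.27 at day (adjusted p = 0.000391) and 1.35 ± 0.26 at night (adjusted p = 0.00466). The HSP70 of the matrix, mtHsc70-1, which draws imported precursors across the membrane and folds them, was at 59.2, 67.4 and 55.2 TPM in WT day, 178, 147 and 195 in bou-2 day, 63.0, 61.9 and 58.6 in WT night and 162, 156 and 163 in bou-2 night. It was 2.69-fold higher at day (log2 1.43 ± 0.10, adjusted p = 2.01e-05) and 2.43-fold higher at night (1.28 ± 0.10, adjusted p = 4.36e-05), and the spread within each night group was a few TPM. Hsp89.1, the HSP90 that the annotation places first in the mitochondrion, was at 17.1, 21.3 and 16.97 TPM in WT day and 53.6, 43.6 and 62.4 in bou-2 day, and at 20.8, 20.9 and 17.7 in WT night and 47.5, 41.5 and 46.6 in bou-2 night. The difference was 2.70-fold at day (adjusted p = 9.39e-05) and 2.12-fold at night (adjusted p = 0.000424).

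The 3 HSP60 genes encode chaperonin subunits of the mitochondrion and differed by less. HSP60 was at 55.3, 67.0 and 51.0 TPM in WT day, 132, 111 and 129 in bou-2 day, 62.7, 62.2 and 54.9 in WT night and 126, 129 and 136 in bou-2 night, a log2 fold change of 1.01 ± 0.11 at each time (adjusted p = 0.000201 and 0.000235). HSP60-2 was at 38.1, 40.8 and 36.4 TPM in WT day, 77.3, 59.6 and 79.8 in bou-2 day, 50.5, 51.7 and 40.8 in WT night and 67.4, 66.0 and 70.8 in bou-2 night. HSP60-3A was at 17.604, 17.05 and 16.8 TPM in WT day, 33.0, 26.7 and 31.0 in bou-2 day, 20.5, 21.4 and 18.7 in WT night and 28.6, 25.1 and 28.1 in bou-2 night. For these 2 genes the groups did not overlap at either time, and the log2 fold changes were 0.82 and 0.73 at day (adjusted p = 0.000839 and 0.000419) and 0.41 and 0.33 at night (adjusted p = 0.0269 and 0.0245).

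**Figure D2:**
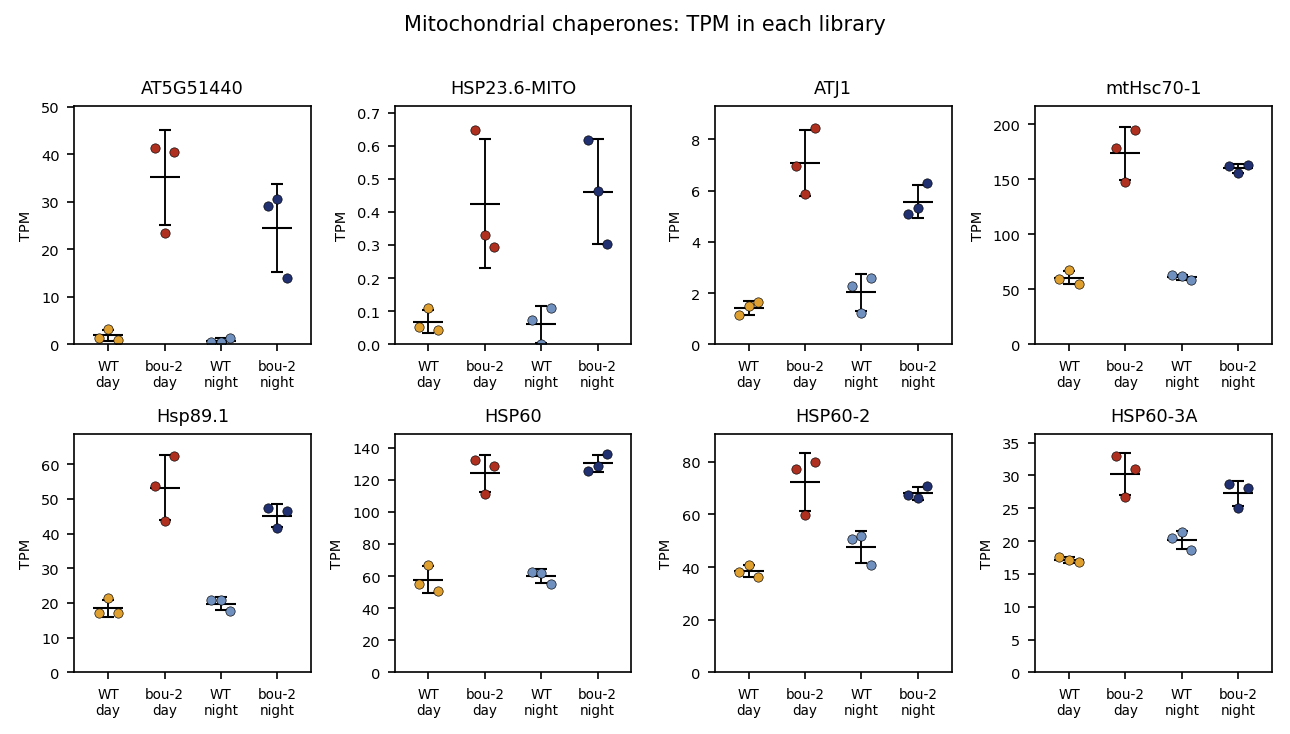
TPM (y axis, linear from 0) of 7 members whose description or note names the mitochondrion and of AT5G51440 in the 12 libraries, 1 point per library, with the mean and SD of each group of 3 as a bar. In each of the 8 panels the bou-2 points lie above the WT points at the same time, from HSP23.6-MITO (WT at most 0.11 TPM, bou-2 at least 0.294) to mtHsc70-1 (WT at most 67.4 TPM, bou-2 at least 147).

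The mitochondrial dysfunction motif, which NAC transcription factors bind in front of genes that respond when mitochondria are disturbed, was searched as CTTGNNNNNCAAG, CTTGNNNNNCACG and CGTGNNNNNCAAG, forms that together cover both strands, from 500 bases before to 50 bases after each annotated gene start in TAIR10.1. It was present for 7 of 129 members (5.43%) and for 2.32% of 27443 protein-coding genes. Of the 10 members with a mitochondrial description or note 2 had it, as had AT5G51440, and these 3 are shown 5′ to 3′ on the gene's strand with the motif in capitals:
AT5G51440, chr5:20891045-20891074, plus strand: ttattttaCTTGGAGACCACGcagttctag
HSP23.6-MITO, chr4:12916872-12916901, plus strand: tcacttagCTTGGGAGCCACGgatctctag
mtHsc70-1, chr4:17828303-17828332, minus strand: acataataCTTGTAGCCCACGaatattttt
The motif began at -110, -46 and -132 from the gene start in these genes, and all 3 hold the form that ends in CACG. The other members with the motif were HSP17.4, HSP17.6II, AT3G10680 and AT2G22360, of which only HSP17.4 was called between genotypes. ATJ1, Hsp89.1 and the HSP60 genes were higher in bou-2 and did not have it. A link between the motif and the genotype difference was not tested. Such a match is a description of letters and not a measured binding site.

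The cytosolic HSP70 genes divided into an abundant and a low-level set. HSC70-1 (chr5:553745-556623), the constitutive cognate and the most abundant member in WT, was at 1803, 1414 and 1213 TPM in WT day, 1317, 968 and 1070 in bou-2 day, 1339, 1232 and 1270 in WT night and 1706, 1854 and 1718 in bou-2 night. The mutant had less of it at day, by a log2 value of -0.48 ± 0.12 (adjusted p = 0.0186), although the day groups overlapped in TPM. This call was lost under 5 alternatives, 3 of them the omission of WT day replicate 1, bou-2 day replicate 2 or bou-2 day replicate 3 (adjusted p up to 0.137). At night its log2 value was 0.35 ± 0.12 (adjusted p = 0.064), with the bou-2 libraries all above the WT ones.

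HSP70 (AT3G12580, chr3:3991117-3993886), the heat-inducible cytosolic form, was at 15.3, 25.8 and 14.4 TPM in WT day, 57.7, 44.4 and 50.6 in bou-2 day, 2.69, 1.93 and 3.44 in WT night and 34.4, 47.9 and 13.4 in bou-2 night. The groups did not overlap at either time, and the log2 fold change was 1.37 ± 0.39 at day (adjusted p = 0.0266) and 3.46 ± 0.43 at night (adjusted p = 0.000481), the latter an 11.0-fold difference. The day call was lost without each of 5 of the 6 day libraries, all but WT day replicate 2 (adjusted p up to 0.0788). Hsp70-2 was at 28.9, 31.3 and 12.5 TPM in WT day, 59.0, 44.3 and 69.8 in bou-2 day, 18.7, 22.5 and 20.5 in WT night and 97.0, 82.6 and 67.7 in bou-2 night. It was 2.26-fold higher at day (adjusted p = 0.0104) and 3.73-fold higher at night (adjusted p = 0.000985). Its transcript is 86.7% identical to that of HSC70-1 over 79.5% of its length, and how reads were divided between them was not tested.

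AT3G09440, described as an HSP70 family protein, was at 292, 418 and 272 TPM in WT day, 349, 247 and 269 in bou-2 day, 128, 121 and 126 in WT night and 211, 266 and 242 in bou-2 night. Only its night difference was called (log2 0.84 ± 0.17, adjusted p = 0.0054), and its day groups overlapped. Hsp70-15, of the high-molecular-weight branch that exchanges nucleotides on other HSP70s, was at 84.3, 83.9 and 77.1 TPM in WT night and 129, 140 and 137 in bou-2 night (log2 0.62 ± 0.09, adjusted p = 0.0013), and shares 95.4% of its sequence with HSP91 over 89.3% of its length. HSP91 had a log2 value of 0.27 ± 0.11 (adjusted p = 0.11). Hsp70b, which is known as strongly heat-induced, was at 2.09 to 2.95 TPM in WT day, 2.68 to 3.33 in bou-2 day, 3.44 to 3.87 in WT night and 3.55 to 4.02 in bou-2 night and passed no test. In the family, 14 genes were tested. The mutant had more of 3 (21.4%) and less of 1 (7.14%) at day, beside 14.8% and 12.8% of all genes tested, and more of 5 (35.7%, beside 14.8%) and less of 0 (beside 12.2%) at night, where none fell at an unadjusted p under 0.05 in edgeR and DESeq2's Wald test also called 0 lower.

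Among the cytosolic HSP90 genes the heat-inducible HSP90.1 (chr5:21352557-21355147) was at 8.28, 6.89 and 3.68 TPM in WT day, 23.03, 14.95 and 20.3 in bou-2 day, 1.79, 2.93 and 2.13 in WT night and 15.73, 17.9 and 6.12 in bou-2 night. It was 2.94-fold higher at day (adjusted p = 0.0133) and 5.41-fold higher at night (adjusted p = 0.00179), and bou-2 night replicate 3 was the low one of its group, as it was for HSP70 and AT5G51440. The constitutive HSP81-2 was at 360, 286 and 223 TPM in WT day, 355, 289 and 348 in bou-2 day, 162, 163 and 129 in WT night and 260, 303 and 298 in bou-2 night. HSP81-3 was at 282, 255 and 200 TPM in WT day, 262, 232 and 269 in bou-2 day, 123.4, 118.8 and 96.4 in WT night and 175, 207 and 209 in bou-2 night. Both of them overlapped at day and were higher in bou-2 at night, by log2 0.82 ± 0.15 (adjusted p = 0.00289) and 0.70 ± 0.13 (adjusted p = 0.00341). Their transcripts are 91.9% identical to each other, and that of Hsp81.4, at 17.42 to 29.98 TPM in all libraries and called in no comparison, is 91.2% identical to HSP81-3.

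HSP101, the disaggregase required for acquired thermotolerance, was at 7.28, 7.42 and 6.88 TPM in WT day, 10.3, 9.35 and 9.03 in bou-2 day, 3.82, 3.78 and 3.89 in WT night and 5.17, 6.78 and 4.21 in bou-2 night. The TPM ranges of the genotypes did not overlap, but the log2 fold changes of 0.33 ± 0.15 at day (adjusted p = 0.13) and 0.39 ± 0.15 at night (adjusted p = 0.088) did not pass the test.

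**Figure D3:**
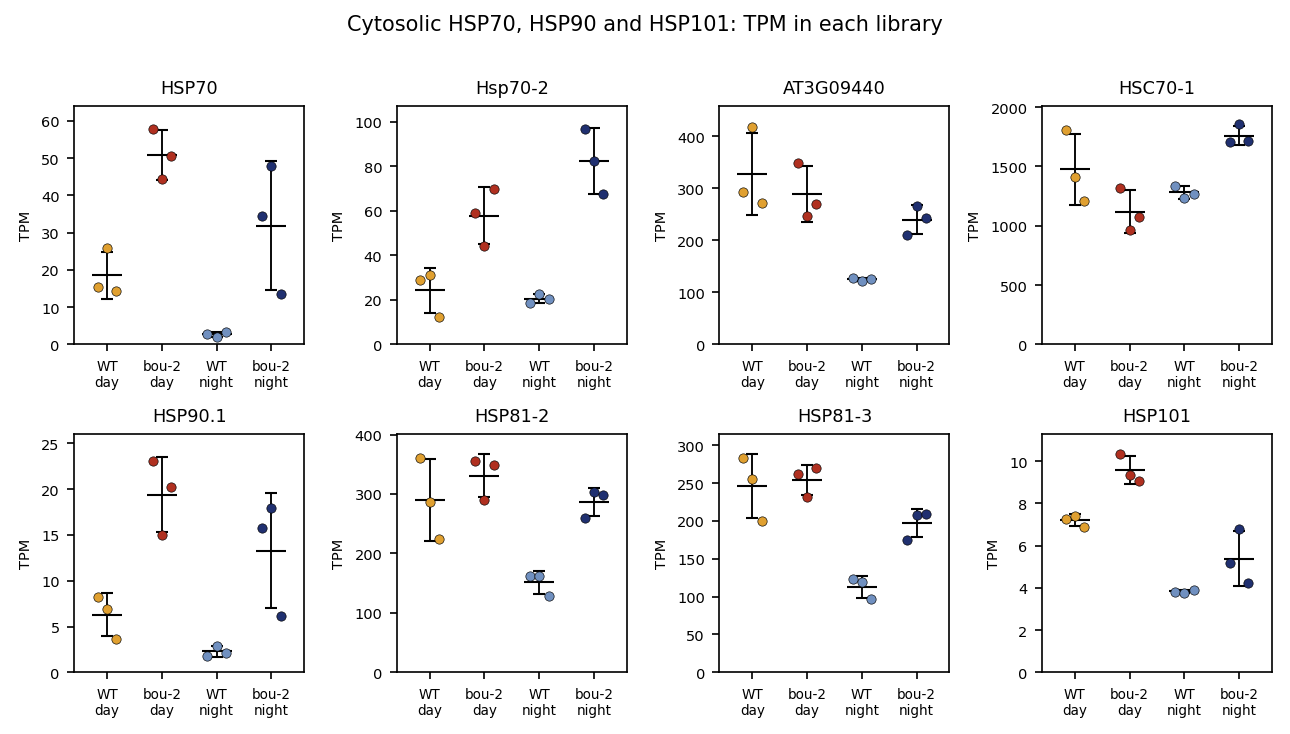
TPM (y axis, linear from 0) of 4 HSP70 genes (top row) and of HSP90.1, HSP81-2, HSP81-3 and HSP101 (bottom row) in the 12 libraries, 1 point per library, with the mean and SD of each group of 3. HSP70 and HSP90.1 are lowest in WT night (at most 3.44 and 2.93 TPM), and the abundant HSP81-2 and HSP81-3 overlap between genotypes at day but not at night.

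The heat shock element was searched in the same windows as GAANNTTCNNGAA and TTCNNGAANNTTC, which are the strand complements of each other. It was present for 10 of 129 members (7.75%) and for 0.922% of all 27443 protein-coding genes. By family these were 3 of 16 HSP70 genes, 4 of 42 small HSPs, 2 of 17 HSFs, 1 of the 6 HSP90 and HSP101 genes and 0 of 43 DnaJ genes. It is shown for the genes with the 3 widest night differences among its holders in the HSF, HSP70 and HSP90 families, with the element in capitals:
HSFA2, chr2:11135528-11135557, plus strand: ttagtaacGAAGTTTCTGGAAcattgtctt
HSP70, chr3:3993845-3993874, minus strand: ttactcgtGAACGTTCTCGAAagctctttg
HSP90.1, chr5:21352254-21352283, plus strand: aacgaaaaGAACTTTCTGGAAttcgtttgc
The element began at -88 and -295 in HSFA2 and HSP90.1 and 20 bases past the annotated start in HSP70. HSFA7A had 2 elements, at -192 and -142, and was lower in bou-2 at night. HSP17.4 had 2 elements and 1 mitochondrial dysfunction motif, at -99, -18 and -58, which did not overlap, and was the only member with both kinds. The others were cpHsc70-2, AT3G09440, BOB1, RTM2 and AT1G53540, of which cpHsc70-2 and RTM2 were called in no comparison and AT1G53540 was not tested. The search took only exact blocks within these windows. Imperfect or more distant elements would be missed, and a match is no measured binding site.

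Small HSPs were called in both directions. Of 30 tested, the day comparison called 8 higher (26.7%) and 2 lower (6.67%) in the mutant, beside 14.8% and 12.8% of all genes tested. The night comparison called 5 higher (16.7%) and 3 lower (10%), which is near the 14.8% and 12.2% of all genes, with family medians of 0.02 and 0.00 on the log2 scale. Of the 6 small HSPs named by their mass 4 were tested, and of the 36 described as HSP20-like 26 were. AT2G29500 (chr2:12633065-12634120), an HSP20-like gene, was at 2.26, 4.99 and 4.41 TPM in WT day, 17.03, 20.3 and 19.7 in bou-2 day, 4.70, 4.33 and 5.34 in WT night and 15.5, 18.5 and 15.4 in bou-2 night. The difference was 4.46-fold at day (adjusted p = 0.000463) and 3.18-fold at night (adjusted p = 0.00176), with no overlap. AT1G07400, of the same description, was at 2.03, 1.78 and 1.60 TPM in WT day, 9.86, 16.0 and 11.9 in bou-2 day, 0.569, 0.653 and 0.434 in WT night and 3.97, 7.01 and 1.23 in bou-2 night. It was 6.55-fold higher at day (adjusted p = 0.00369) and 6.83-fold higher at night (adjusted p = 0.00518), again with bou-2 night replicate 3 as the lowest of its group, and the night value was 4.33-fold without bou-2 night replicate 2.

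HSP17.4, a class I cytosolic small HSP, was at 0.0673, 0.997 and 0.289 TPM in WT day, 1.80, 5.29 and 3.53 in bou-2 day, 0.189, 0.569 and 0.072 in WT night and 3.40, 2.96 and 1.35 in bou-2 night. These levels were low, and the log2 fold changes of 2.86 ± 0.89 at day (adjusted p = 0.0392) and 3.09 ± 0.94 at night (adjusted p = 0.0362) were lost under 8 and 5 of 19 alternatives (adjusted p up to 0.129 and 0.113), nearly all of them a library left out. Without WT replicate 2 of the same time the values were 4.11 and 4.14. HSP17.4 passed the count filter through its bou-2 libraries (17 to 61 estimated counts, against 1 to 14 in WT). Its calls are therefore no independent support. HSP17.6A, of class II, was at 0.241, 0.255 and 0.345 TPM in WT day and 0.888, 5.499 and 1.11 in bou-2 day (log2 3.06 ± 0.94, adjusted p = 0.0382), where bou-2 day replicate 2 held most of the signal and its omission gave a log2 value of 1.58. HSP17.6II, also of class II, was at 0.37 to 0.421 TPM in WT day and 0.221 to 2.17 in bou-2 day and was not called. Both class II genes passed the count filter through bou-2 libraries as well, so the call of HSP17.6A is no independent support.

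Smaller day differences were found in genes that are expressed at moderate to high levels. AT4G02450 was the most abundant small HSP entry, at 150, 144 and 147 TPM in WT day, 232, 197 and 218 in bou-2 day, 176, 172 and 163 in WT night and 218, 211 and 219 in bou-2 night. It was higher in bou-2 at day (log2 0.45 ± 0.08, adjusted p = 0.00315), and its night value of 0.23 ± 0.08 had an adjusted p of 0.061. AT4G21870 was 2.00-fold higher at day (adjusted p = 0.00967), at 4.27 to 5.69 TPM in WT and 9.96 to 11.4 in bou-2, and overlapped at night. AT1G54850 was 1.52-fold higher at day (adjusted p = 0.00856), at 8.08 to 8.41 TPM in WT and 11.7 to 16.8 in bou-2. With only the 6 day libraries in the fit the calls of both were lost (adjusted p = 0.0526 and 0.0668). BOB1, a NudC-domain chaperone needed for development, was at 30.7, 34.6 and 29.1 TPM in WT night and 46.5, 49.4 and 58.5 in bou-2 night (log2 0.60 ± 0.16, adjusted p = 0.0228), a call lost with 4 night libraries left out in turn (adjusted p up to 0.0923).

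The opposite direction was led by HSP18.2 (chr5:24062323-24063300), a class I small HSP widely used as a heat marker. It was at 14.2, 9.80 and 6.75 TPM in WT day, 3.76, 3.62 and 3.82 in bou-2 day, 8.75, 5.24 and 5.33 in WT night and 4.05, 3.79 and 3.07 in bou-2 night. The bou-2 libraries were below the WT libraries at both times, by log2 -1.56 ± 0.29 at day (adjusted p = 0.00363) and -0.93 ± 0.29 at night (adjusted p = 0.0379), and the night call was lost under 6 alternatives (adjusted p up to 0.155). AT1G54050 was at 10.3, 9.15 and 17 TPM in WT night and 8.78, 6.27 and 7.43 in bou-2 night (log2 -0.83 ± 0.25, adjusted p = 0.0342), a call lost under 6 alternatives as well, without WT night replicate 3 among them (adjusted p up to 0.14). AT1G76780 was below 1 TPM in all libraries and lower at day (log2 -1.49 ± 0.28, adjusted p = 0.00384). AT2G03020 had 0 counts in every bou-2 night library and 4, 15 and 7.78 estimated counts in WT night. Against a floor of 3 counts over the bou-2 night group WT night was 10.3-fold higher, a ratio that leaves out the counting error of WT night.

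**Figure D4:**
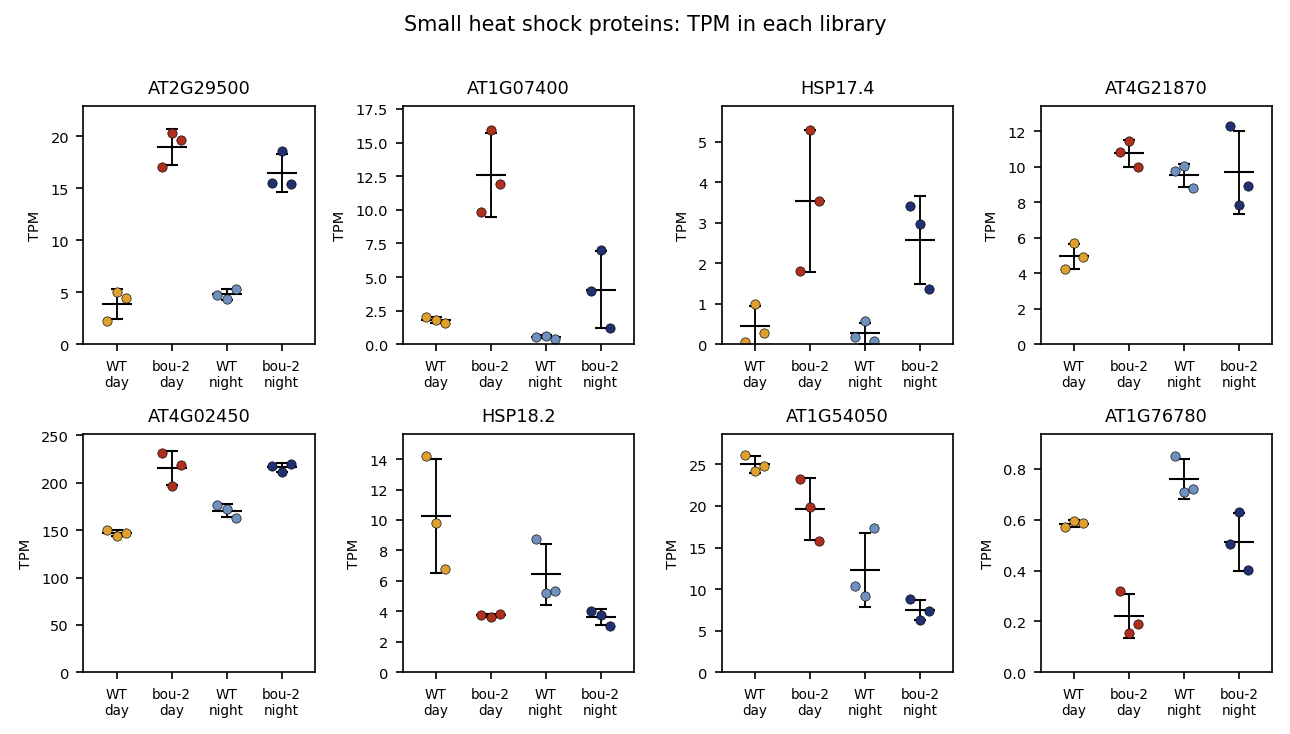
TPM (y axis, linear from 0) of 8 small HSP genes in the 12 libraries, 1 point per library, with the mean and SD of each group of 3. The top row and AT4G02450 hold genes higher in bou-2 at day, while HSP18.2 has all bou-2 points (3.07 to 4.05 TPM) below all WT points (5.24 to 14.2 TPM).

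Among DnaJ genes 40 were tested, and at each time 7 (17.5%) rose and 1 (2.5%) fell in bou-2. The higher share is near the 14.8% of all genes tested, and the lower one stands beside 12.8% at day and 12.2% at night. AT5G23240 (chr5:7826732-7828724), which RefSeq also names DJC76 and the annotation places in the chloroplast, was at 2.04, 2.23 and 1.51 TPM in WT day, 17.7, 19.8 and 19.2 in bou-2 day, 14.95, 18.7 and 20.8 in WT night and 32.0, 39.8 and 44.3 in bou-2 night. WT day was thus far below the other 3 groups, and bou-2 day lay within the range of WT night. The genotype difference was 9.28-fold at day (log2 3.21 ± 0.18, adjusted p = 6.72e-06) and 1.99-fold at night (0.99 ± 0.16, adjusted p = 0.00167). ATERDJ3A, a DnaJ of the endoplasmic reticulum, was 1.98-fold higher at day and 1.97-fold higher at night (adjusted p = 0.0137 and 0.0147), at 2.52 to 3.46 TPM in WT day and 5.19 to 7.48 in bou-2 day. OWL1, known from responses to very low light, was 1.62-fold and 1.45-fold higher (adjusted p = 0.00285 and 0.0101). TPR16 was lower at day, at 0.687 of the WT level (adjusted p = 0.0131), and AT2G42750 was lower at night, at 0.618 of it (adjusted p = 0.00224). AT2G05250 was called higher at day, but its transcript is 99.9% identical to that of AT2G05230, and reads of the pair cannot be told apart. In no comparison did 24 of the 40 tested DnaJ genes pass. The share of all genes tested that passed in none was not counted, so this count says nothing particular about DnaJ genes.

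HSFs were expressed at low levels. Of 14 tested, the mutant had more of 1 (7.14%) and less of 2 (14.3%) in the day libraries, beside 14.8% and 12.8% of all genes tested, and more of 5 (35.7%, beside 14.8%) and less of 1 (7.14%, beside 12.2%) in the night libraries. HSFA2 (chr2:11135624-11137792) was at 5.72, 9.58 and 5.77 TPM in WT day, 14.1, 17.3 and 19.97 in bou-2 day, 0.340, 0 and 0.355 in WT night and 3.35, 3.69 and 2.73 in bou-2 night. Each bou-2 group was above the WT group of its time without overlap, by log2 1.19 ± 0.38 at day (adjusted p = 0.0423) and 3.64 ± 0.51 at night (adjusted p = 0.000895), a 12.4-fold difference. The day call was lost under 9 of 19 alternatives (adjusted p up to 0.122), 8 of them a library left out, and the night call under none.

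HSFA3, which acts downstream of DREB2A, was at 0.984, 0.636 and 0.655 TPM in WT day, 0.647, 0.569 and 0.706 in bou-2 day, 0.801, 0.668 and 0.777 in WT night and 2.20, 1.64 and 1.97 in bou-2 night. Only bou-2 night stood apart, 2.39-fold above WT night (adjusted p = 0.0113). HSFA8 was at 3.28, 5.30 and 2.30 TPM in WT day, 4.96, 5.03 and 6.30 in bou-2 day, 4.18, 5.16 and 5.25 in WT night and 10.4, 10.6 and 15.5 in bou-2 night, and here too bou-2 night was the high group (2.32-fold above WT night, adjusted p = 0.00782). HSF A4A was at 6.81, 6.502 and 11.0 TPM in WT night and 24.3, 12.1 and 14.4 in bou-2 night, with an adjusted p of 0.055.

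HSFA6A was near the detection limit, at 2.76, 0.175 and 1.19 TPM in WT day, 0.435, 0.142 and 0.106 in bou-2 day, 0.155, 0 and 0.059 in WT night and 1.39, 4.30 and 1.89 in bou-2 night. The bou-2 night libraries held 128 counts and the WT night libraries 3, a ratio of 37.0 per library total with a 95% exact counting interval from 12.4 to 182, which covers counting error only. HSFA6A passed the count filter mainly through bou-2 night (21, 78 and 29 estimated counts). It was called higher in bou-2 at night (log2 4.90, adjusted p = 0.0106, with 5.85 without WT night replicate 1 and 4.27 without bou-2 night replicate 2) and not at day (log2 -2.63 ± 1.00, adjusted p = 0.083), where WT day replicate 1 held most of the counts of its group. The night call is therefore no independent support.

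HSFC1 was at 10.8, 6.80 and 10.8 TPM in WT day, 4.02, 2.83 and 2.22 in bou-2 day, 10.5, 7.43 and 12.996 in WT night and 8.93, 12.99 and 11.6 in bou-2 night. Only bou-2 day was low, at 0.302 of the WT day level (adjusted p = 0.00183). The class B factor HSFB2A was at 6.07, 6.81 and 4.97 TPM in WT day, 2.93, 2.80 and 4.48 in bou-2 day, 2.41, 2.58 and 3.23 in WT night and 4.33, 4.15 and 5.90 in bou-2 night. It was lower in bou-2 at day (log2 -0.91 ± 0.21, adjusted p = 0.0106) and higher at night (0.70 ± 0.21, adjusted p = 0.0339). HSFA7A, heat-inducible like HSFA2, went the other way at night, at 8.90, 8.28 and 7.34 TPM in WT and 5.55, 4.15 and 4.42 in bou-2 (log2 -0.91 ± 0.26, adjusted p = 0.0284). The night calls of HSFB2A and HSFA7A were each lost with 4 of the 6 night libraries left out in turn (adjusted p up to 0.14 and 0.0966).

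The 4 HSFA1 genes, HSF1 (HSFA1A), HSF3 (HSFA1B), HSFA1D and HSFA1E, were at 3.39 to 10.5 TPM in all libraries, and edgeR called none between genotypes, with 2 of them at an unadjusted p under 0.05 at day and 0 at night, while DESeq2's Wald test called 1 at day. The nearest was HSF1 at day, with a log2 value of 0.43 ± 0.14 (adjusted p = 0.054). HSF4, which RefSeq also names HSFB1, was at 7.98 to 17.3 TPM in WT day and 11.0 to 15.4 in bou-2 day and was not called between genotypes either. HSBP, the small protein that binds HSF trimers, was at 136 to 163 TPM in all 12 libraries and was called nowhere.

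**Figure D5:**
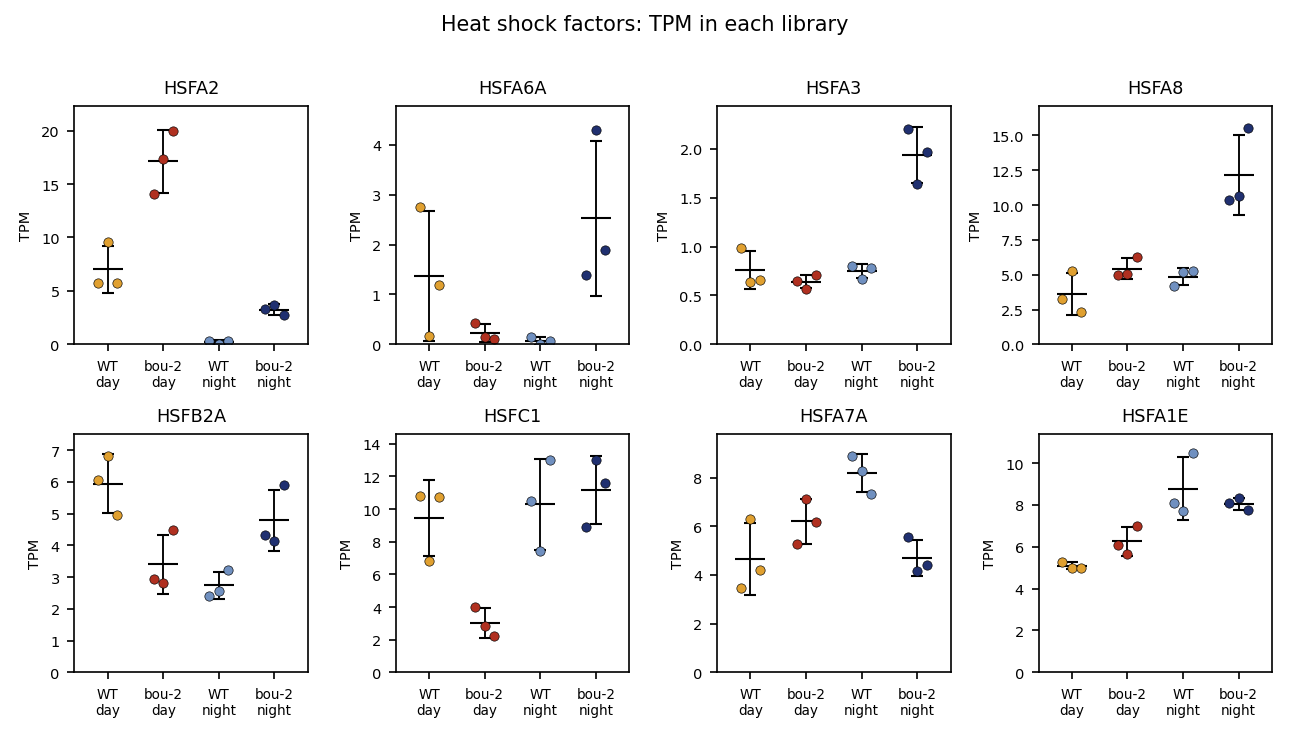
TPM (y axis, linear from 0) of 8 HSF genes in the 12 libraries, 1 point per library, with the mean and SD of each group of 3. HSFA2 is highest in bou-2 day (14.1 to 19.97 TPM) and near 0 in WT night, HSFA3, HSFA8 and HSFA6A are highest in bou-2 night on average, and HSFC1 is low only in bou-2 day.

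The day and night harvests were also compared within each genotype, and these comparisons use the same libraries as those between genotypes. In WT 15 members were higher at day, beside 5.58% of all genes tested, and 3 were lower, beside 3.88%. The member shares were 13.8% and 2.75%, and the count of 15 fell to 8, 9 and 9 without WT night replicate 1, 2 and 3. HSFA2 had the widest difference, 31.4-fold higher at day (log2 4.97 ± 0.51, adjusted p = 0.000195), with the 19 counts of WT night spread over replicates 1 and 3. HSP70 was 7.46-fold higher at day (adjusted p = 0.00183), AT3G09440 2.85-fold (adjusted p = 0.000349), HSP81-3 2.35-fold (adjusted p = 0.000237), HSP81-2 2.06-fold (adjusted p = 0.00139) and HSP101 2.04-fold (adjusted p = 0.00176). The genes higher at day in WT thus took in 4 of 6 HSP90 and HSP101 genes. HSP90.1 was among them at 2.95-fold, but its call was lost under 8 alternatives (adjusted p = 0.0339, up to 0.131). HSFB2A was 2.35-fold higher at day (adjusted p = 0.00427) and HSF4 2.07-fold (adjusted p = 0.0261), the latter a call lost under 8 alternatives (adjusted p up to 0.101).

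AT2G20560, described only as a DnaJ family protein, was at 10.8, 11.1 and 7.80 TPM in WT day, 9.54, 11.3 and 11.4 in bou-2 day, 2.78, 2.79 and 2.18 in WT night and 4.97, 5.68 and 5.74 in bou-2 night. Day was above night in both genotypes, 4.14-fold in WT (adjusted p = 4.69e-05) and 2.17-fold in bou-2 (adjusted p = 0.00127). The 3 members lower at day in WT were AT5G23240 at 0.115 of the night level (adjusted p = 2.99e-06), HSFA1E at 0.633 (adjusted p = 0.00522) and AT4G21870 at 0.569 (adjusted p = 0.0494), the last lost under 13 alternatives (adjusted p up to 0.133).

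In bou-2 11 members were higher at day, beside 7.68% of all genes tested, and 12 were lower, beside 7.69%. The count of 11 fell to 6 or 7 without bou-2 day replicate 2 or 3 or bou-2 night replicate 1 or 3, and the count of 12 to 5 or 6 without bou-2 day replicate 2 or 3 or any bou-2 night library. HSFA2 was 5.78-fold higher at day (log2 2.53 ± 0.40, adjusted p = 0.00199), HSP101 1.96-fold (adjusted p = 0.0017) and AT1G54050 2.87-fold (adjusted p = 0.00251). AT1G54050 was also higher at day in WT, 2.23-fold (adjusted p = 0.0138), and AT1G20870 was 2.00-fold higher in WT and 2.11-fold in bou-2 (adjusted p = 0.0146 and 0.00767). For HSP70 and HSP81-2 the day and night bou-2 levels differed by log2 0.81 ± 0.38 and 0.34 ± 0.15 and were not called (adjusted p = 0.2 and 0.15). Lower at day in bou-2 were 4 of 14 tested HSFs, namely HSFC1 at 0.299 of the night level (adjusted p = 0.00245), HSFA3 at 0.364 (adjusted p = 0.00941), HSFA8 at 0.489 (adjusted p = 0.0265) and HSFA1D at 0.725 (adjusted p = 0.0232). The call of HSFA1D was lost with each of the 6 bou-2 libraries left out in turn and that of HSFA8 with 4 of them (adjusted p up to 0.0881 and 0.106). HSP91 was at 0.638 of its night level (adjusted p = 0.00395), and HSC70-1 at 0.6996 (adjusted p = 0.0204), a call lost under 5 alternatives (adjusted p up to 0.0974).

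Whether the genotype difference itself changed with the time was tested as an interaction. Of the members 1 had a bou-2 effect higher at day than at night, beside 0.538% of all genes tested, and 2 had a lower one, beside 0.645%. AT5G23240 had the higher one (log2 2.22 ± 0.24, adjusted p = 0.00298), and it was called under each of the alternatives run. HSFB2A (-1.61 ± 0.30, adjusted p = 0.0368) and HSFA6A (-7.53 ± 1.51, adjusted p = 0.0481) had the lower ones, and these were lost under 11 and 13 alternatives (adjusted p up to 0.101 and 0.134). Leaving out 1 library gave from 0 genes to 8 in place of these 2, the 8 without WT day replicate 3. For HSFA2, HSP70 and AT3G09440, whose night values were the wider ones or the only ones called, the differences of -2.44 ± 0.64, -2.09 ± 0.56 and -1.11 ± 0.24 were not called by edgeR (adjusted p = 0.115, 0.12 and 0.0602). The same was true of HSFC1 (-1.75 ± 0.39, adjusted p = 0.0677). DESeq2's Wald test called all 4 of these differences (adjusted p = 0.000741, 0.00687, 0.00052 and 0.0027), and it called 12 members lower and 3 higher in all.

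By the same rule the description or note named the chloroplast for 11 members, of which 10 were tested. At each time 2 were higher and 1 was lower in bou-2, which is 20% and 10% beside 14.8% higher and 12.8% (day) and 12.2% (night) lower of all genes tested. The higher ones were AT5G23240 and HSP60-2, whose note lists the mitochondrion first, and the lower ones TPR16 at day and AT2G42750 at night. The chloroplast HSP70 genes cpHsc70-1 and cpHsc70-2 were called in no comparison, with log2 values between -0.05 and 0.10 at day and between -0.11 and 0.25 at night. HSP21, the chloroplast small HSP, has no location note, was listed at 0 in 9 of 12 libraries and reached 0.49 TPM in 1 WT day library. Chloroplast genes outside the description rule are not counted here, and of these HSP90.5 was higher in bou-2 at both times, as given below.

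The note named the endoplasmic reticulum for 4 members, BIP1, BIP3, ATERDJ3B and AT1G18700, and edgeR called none of them in any comparison. At an unadjusted p under 0.05 there were 0 between genotypes at either time and 1 between the times in each genotype, and DESeq2's Wald test called 1, between the times in WT. Of all genes tested, 14.8% were higher in bou-2 at each time, and 12.8% (day) and 12.2% (night) were lower. BIP2, ATERDJ3A and ATHSP22.0 belong to this compartment by background knowledge and not by their notes, and of these ATERDJ3A was called as given above. In the further list given next, PDIL1-2 of this compartment was higher in bou-2 at day and night (log2 1.00 ± 0.24 and 0.77 ± 0.23, adjusted p = 0.012 and 0.0369). Its stress factors BZIP60 and BZIP28 were higher at night only (0.63 ± 0.17 and 0.42 ± 0.10, adjusted p = 0.024 and 0.0129). HSP90.7, PDIL1-1 and CNX1 were not called between genotypes. BIP1 was at 145 to 321 TPM and BIP2 at 87.0 to 192, with transcripts 97.2% identical, and BIP3 at 0.786 to 9.06. AT1G18700 was at 9.08 to 11.7 TPM in WT day, 11.0 to 15.66 in bou-2 day, 13.6 to 17.2 in WT night and 16.9 to 18.6 in bou-2 night. ATHSP22.0 was at 0 in all 12 libraries, as was AT4G27890. The remaining untested genes, HSFB3, HSFA9 and HSFA6B among them, stayed at or below 1.13 TPM in each library.

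A further list of 41 chaperone and heat stress genes was written, of which 30 were outside the description rule and 28 were tested. Higher in bou-2 were 8 of them at day (28.6%) and 12 at night (42.9%), beside 14.8% of all genes tested at each time. Lower were 2 at day (7.14%, beside 12.8%) and 0 at night (beside 12.2%), where edgeR gave 2 at an unadjusted p under 0.05 and DESeq2's Wald test called 1, with a median log2 fold change of 0.21 at day and 0.39 at night. Mitochondrial genes were again among them. CPN10, the lid of the HSP60 chaperonin, had mean levels of 119 TPM in WT day and 276 in bou-2 day, 126 in WT night and 280 in bou-2 night (log2 1.10 ± 0.16 and 1.04 ± 0.16, adjusted p = 0.00102 and 0.00137). MTHSC70-2, another HSP70 of the matrix, had means of 56.7, 102, 34.6 and 84.3 TPM in the same order (log2 0.77 ± 0.12 and 1.18 ± 0.12, adjusted p = 0.00127 and 0.000172). CLPB4, a mitochondrial disaggregase, was higher by log2 0.42 ± 0.11 and 0.47 ± 0.11 (adjusted p = 0.0201 and 0.0125).

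Outside the mitochondrion HSP90.5, the chloroplast HSP90, had means of 114 TPM in WT day, 354 in bou-2 day, 124 in WT night and 260 in bou-2 night (log2 1.54 ± 0.16 and 0.96 ± 0.16, adjusted p = 0.000167 and 0.00183). DREB2A, a stress factor that activates HSFA3, had means of 1.59, 8.33, 0.391 and 2.50 TPM (log2 2.34 ± 0.60 and 2.54 ± 0.67, adjusted p = 0.0178 and 0.019). FES1A had means of 18.1 TPM in WT day, 32.5 in bou-2 day, 11.0 in WT night and 21.5 in bou-2 night (log2 0.76 ± 0.11 and 0.86 ± 0.11, adjusted p = 0.000968 and 0.000593). GOLS1, a galactinol synthase that HSFs induce, had means of 122 TPM in WT day, 27.8 in bou-2 day, 16.8 in WT night and 11.1 in bou-2 night and was lower at day (log2 -2.21 ± 0.54, adjusted p = 0.014). The other gene lower at day was ROF2 (log2 -1.18 ± 0.22, adjusted p = 0.00398). MBF1C, a heat-induced coactivator, was not called between genotypes but was higher at day than at night, by log2 2.20 ± 0.14 in WT (adjusted p = 5.83e-06) and 1.78 ± 0.14 in bou-2 (adjusted p = 1.91e-05). FES1A was also higher at day, by log2 0.84 ± 0.11 in WT (adjusted p = 0.000998) and 0.74 ± 0.11 in bou-2 (adjusted p = 0.00142). So was CLPB3, by log2 0.60 ± 0.14 in WT and 0.62 ± 0.14 in bou-2 (adjusted p = 0.0195 and 0.0123). In all, 9 of the 28 genes were higher at day in WT (32.1%, beside 5.58% of all genes tested) and 6 in bou-2 (21.4%, beside 7.68%). By edgeR none was lower, with 3 and 1 at an unadjusted p under 0.05, and DESeq2's Wald test called 1 lower in WT and 0 in bou-2.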

How the data were processed

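RNA of 12 rosette samples, 3 per group, was sequenced by the authors as paired reads of 150 bp on a HiSeq 3000. The authors quantified reads on TAIR10 transcripts with kallisto 0.43.0 and deposited its estimated counts, which are not normalized, and its TPM, which are scaled per library and transcript length. The deposited table also holds the authors' mean and SD of TPM (the SD entered as a signal unit), log2 ratios and q-values from sleuth 0.28.1, which were not used. Of 41415 lines 23 repeated a transcript and were dropped. The members, gene lists and tests were chosen with earlier results of these data known.

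Estimated counts were rounded and tested per transcript with edgeR 4.0.16 in R 4.3.3 (filterByExpr with a minimum count of 10, TMM, 1 mean per group over all 12 libraries, glmQLFit and glmQLFTest, Benjamini-Hochberg over 26153 transcripts). The SE of a log2 fold change was its size divided by the square root of F. A gene was called by its primary transcript at an adjusted p under 0.05. Libraries of a group are biological replicates per the labels. The depth was 15911356 to 33046562 estimated counts per library, and intervals cover counting error only. The edgeR test of bou-2 against WT at day was also run on simulated counts. These had a smaller spread between libraries than the data, whose common dispersion was 0.0807. Changes were placed only in transcripts with higher counts, so low counts and the interaction were not covered. Alternatives were DESeq2 1.42.0 size factors, the DESeq2 Wald test, limma 3.58.1 on log2(TPM + 1), no filter, counts summed per gene, only the 6 libraries compared, the replicate number as a block and each library left out.

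Named were, in each of the small HSP, HSP70, HSP90/101 and HSF families, up to 4 called genes per comparison by smallest p, the 3 highest in WT and textbook heat markers, and in the other members up to 3 and in the further list up to 4 called genes per comparison. HSP17.6A, AT2G03020, AT2G05250, AT2G05230, the HSP60-2, HSP60-3A, ATERDJ3A, OWL1, TPR16, AT1G18700, HSBP, BIP, cpHsc70-1 and CLPB4 entries and the holders of motifs were added after their values were seen. From the further list DREB2A, GOLS1, ROF2 and the genes of the endoplasmic reticulum were added in the same way. Sequences, coordinates and motif windows are from the RefSeq annotation of TAIR10.1, in which all 129 members were found, and similarity is from blastn 2.17.0.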

Additional observations from a re-analysis of the deposited data

Results flagged for a closer look

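In 3 members the bou-2 effect was called different between day and night by the test of the difference itself, and 2 of these calls depended on the processing. For AT5G23240 the effect was larger at day by 2.22 on the log2 scale (3.21 at day, 0.99 at night, edgeR adjusted p = 0.00298), with all 3 WT day libraries below all 9 others.

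For HSFB2A the effect was -0.91 at day and 0.70 at night, a difference of -1.61 (edgeR adjusted p = 0.0368), and the bou-2 libraries were all below the WT libraries at day and all above them at night. This call was lost under 11 of 18 alternatives, the replicate block among them (adjusted p up to 0.101).

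For HSFA6A it was -2.63 at day and 4.90 at night, a difference of -7.53 (edgeR adjusted p = 0.0481), on 3 counts in WT night and 8 in bou-2 day. The day value was not called (adjusted p = 0.083), and the call of the difference was lost under 13 of 18 alternatives, the replicate block among them (adjusted p up to 0.134).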

How the results depend on the processing

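Of 87 called results of named members 54 held under each alternative that was run, 33 were lost under 1 or more of 19, and 0 changed direction; the cause of the losses was not tested, apart from the smaller number of libraries in the fits that left some out. Calls lost with only the 6 libraries compared, beside those given above, included Hsp70-2 at day (adjusted p = 0.058), HSFB2A at day (0.0541) and HSFA1E, AT1G20870 and AT1G54050 between times in WT (0.0754, 0.094 and 0.0623), and those lost with libraries left out included HSFA8 and HSFA1D between times in bou-2 (adjusted p up to 0.106 and 0.0881) and AT1G54050 and AT1G20870 between times in WT (up to 0.0684 and 0.0616). Without 1 library the counts of members were 17 to 24 higher and 4 to 8 lower in bou-2 at day, 23 to 32 and 1 to 6 at night, 8 to 15 higher and 2 to 5 lower at day in WT, 6 to 16 and 5 to 15 at day in bou-2, and 1 to 1 and 0 to 8 for a bou-2 effect higher and lower at day than at night. With only the 6 libraries compared 3 members were lower in bou-2 at day, 8 were higher and 1 lower at day in WT, and 17 were higher at day in bou-2. With limma on log2(TPM + 1) 2 members were lower in bou-2 at night, 5 were lower at day in WT and 1 had a bou-2 effect lower at day, and the median of all genes moved to -0.098 from 0.011 between times in WT and to -0.118 from -0.008 in bou-2. The bou-2 effect was lower at day for 1 member with no filter on low counts, for 6 with counts summed per gene and for 12 with the DESeq2 Wald test, which also gave 3 with a higher effect. Samples of the same replicate number did not deviate together (correlations of -0.093 to 0.067, beside -0.120 to 0.107 for unlike numbers). No pairing by number was thus seen, but with 3 libraries per group this cannot show that same-numbered samples were handled apart. With the replicate block in edgeR 21 and 27 members were higher in bou-2 at day and night, and 0 had a lower effect at day, where 16 were at an unadjusted p under 0.05. The 20 members under the count minimum were not tested, and for HSP23.6-MITO, at 0 to 10 counts per library, the genotypes did not overlap at either time.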
